A study of Homo sapiens with 15 samples.

Results

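The interferon-stimulated and antigen presentation genes described here are 44 genes picked by name as well-known targets of interferon signalling or as parts of the class I antigen presentation pathway. The choice was made with earlier results of these data known. Of the 44 genes, 43 had a probe set that names that gene alone, among the 19775 genes measured. STAT2 was not analysed here. Each gene was represented by its brightest such probe set, and 42 of the 43 rose above the floor of 16 on at least 1 array. EPSTI1 lay at the floor on all 15 arrays. The genes were measured on whole-genome expression arrays in PEO1 cells, a long-established line derived from a human epithelial ovarian carcinoma, kept in RPMI medium with fetal bovine serum. Trypsinised cells were stained for the surface proteins CD90 and CD133 and with a dye for dead cells, and sorted by both proteins into CD90-/CD133-, CD90+/CD133- and, as the third fraction, CD90+/CD133+ cells. Each of the 3 fractions has 5 arrays, numbered 1 to 5 in the labels. The labels name no drug and no added interferon for any fraction, and they give all 3 the same medium, stain and parental cells. The model is a single line, and a fraction is whatever the gates on both proteins let through. Nothing in the labels says which arrays came from separate cultures, although the methods speak of biological replicates for CD90-/CD133- and CD90+/CD133- cells, so each p-value measures the spread between these samples, part of which may be technical. In sorted bulk cells, fewer cells that use a gene and less RNA per cell cannot be told apart.

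Interferons are secreted proteins that cells release on meeting viruses and other danger signals. Type I and type III interferons act through surface receptors and JAK kinases on a transcription factor complex that contains IRF9 and binds a DNA element called the interferon-stimulated response element (ISRE). Interferon gamma acts mainly through another element, the gamma-activated site (GAS). The induced proteins block viral entry, translation and replication, sense foreign RNA, tag proteins with ISG15, and cut and transport peptides for display on class I molecules to T cells.

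The RefSeq promoter windows (build GRCh38.p14, from 250 bases before a start site to 50 after) were searched for the letters of these elements. Windows were at hand for 36 of the 44 genes. The letters GAAANNGAAA, an ISRE core in which the 2 central bases may be any, were searched on both strands with overlapping matches counted. They occurred in the windows of 26 of the 36 genes (72.2%), against 4.38% of all 27305 genes with a window. The GAS letters TTCNNNGAA, which read the same on both strands, occurred in 13 of the 36 (36.1%), against 9.38% of all genes. The stretches below, each 80 bases long and read 5′ to 3′ on the gene's own strand upstream of its only listed start site, were chosen to set genes that fell in CD90+ cells (the first 5) beside genes that did not (the next 4). Capitals mark matches to the ISRE letters, also where they run on the other strand, and in the last stretch, from IRF1, matches to the GAS letters.
IFI6 (chr1:27672269-27672348, minus strand, 156 to 77 bases before the start): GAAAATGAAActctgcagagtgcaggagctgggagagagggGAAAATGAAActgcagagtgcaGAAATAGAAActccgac
ISG15 (chr1:1013352-1013431, plus strand, 145 to 66 bases before the start): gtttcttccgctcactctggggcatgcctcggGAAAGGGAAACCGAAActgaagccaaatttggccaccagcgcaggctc
IFITM1 (chr11:313960-314039, plus strand, 80 to 1 bases before the start): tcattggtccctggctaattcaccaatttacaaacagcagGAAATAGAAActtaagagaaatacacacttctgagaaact
DDX60 (chr4:168318778-168318857, minus strand, 105 to 26 bases before the start): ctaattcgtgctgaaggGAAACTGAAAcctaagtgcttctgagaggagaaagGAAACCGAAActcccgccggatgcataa
SAMD9 (chr7:93118071-93118150, minus strand, 171 to 92 bases before the start): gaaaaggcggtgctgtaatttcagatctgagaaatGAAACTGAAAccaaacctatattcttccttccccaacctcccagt
IFIT1 (chr10:89392479-89392558, plus strand, 144 to 65 bases before the start): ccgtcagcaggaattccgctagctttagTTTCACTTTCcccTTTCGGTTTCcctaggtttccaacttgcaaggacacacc
PARP14 (chr3:122680759-122680838, plus strand, 80 to 1 bases before the start): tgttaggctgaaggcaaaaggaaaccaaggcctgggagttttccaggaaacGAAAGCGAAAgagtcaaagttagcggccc
IFIT5 (chr10:89414488-89414567, plus strand, 80 to 1 bases before the start): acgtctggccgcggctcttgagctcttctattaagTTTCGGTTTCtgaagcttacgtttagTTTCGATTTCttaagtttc
PARP12 (chr7:140062952-140063031, minus strand, 80 to 1 bases before the start): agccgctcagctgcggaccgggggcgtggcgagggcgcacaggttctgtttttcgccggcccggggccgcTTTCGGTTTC
IRF1 (chr5:132490853-132490932, minus strand, 159 to 80 bases before the start): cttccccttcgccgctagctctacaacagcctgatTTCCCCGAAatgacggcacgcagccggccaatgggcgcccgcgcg
Among the genes with a window, ISRE letters were held by 13 of the 18 that fell in CD90+/CD133- cells, by both that rose and by 11 of the 15 that did not pass the test. CMPK2, SAMD9L, XAF1, HERC6 and PSMB9 held neither motif, nor did STAT2, which was not analysed on the arrays. A match is a description of the letters and not evidence that a factor bound there.

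The sort and the cell identity were read first. THY1, which encodes CD90, had intensities of 57.8 to 101 in the CD90-/CD133- fraction, 795 to 1221 in CD90+/CD133- and 728 to 2171 in CD90+/CD133+. PROM1, which encodes CD133, lay at 16 to 44.1, 21.5 to 156 and 429 to 1652. The 8 epithelial carcinoma markers summed to 50746 to 63491, 35370.4 to 47889 and 31609 to 44560.4 in the 3 fractions in that order, and in each CD90+ fraction 4 of them, all keratins, fell. EPCAM rose, by 0.33 ± 0.06 in CD90+/CD133- (± standard error, limma adjusted p = 0.00429) and 0.27 ± 0.06 in CD90+/CD133+ cells (adjusted p = 0.0123, and 0.0595 without replicate 5). Of 7 leukocyte markers measured, PTPRC, MS4A1, LYZ and NKG7 were at the floor on all arrays. CD14 alone among them passed the test, at 43.4 to 71.5 in CD90-/CD133- and 92.3 to 148 in CD90+/CD133- cells, and the summed intensity of the 7 was 166 to 190.2, 212 to 272 and 201 to 289 in the 3 fractions. None of 4 dendritic cell markers passed limma's test in any comparison, and CLEC4C was at the floor. Of 6 fibroblast markers, 1 was called higher in each comparison, COL3A1 and LUM were at the floor, and the sums were 194 to 248, 204 to 239 and 227 to 283. As a measure of RNA quality, the 3′ end of GAPDH exceeded its 5′ end by a log2 of 0.19 ± 0.08 (SD, n = 5) in the CD90+/CD133- fraction and by 0.06 ± 0.03 in the CD90-/CD133- fraction (exact permutation test, 2-sided p = 0.0159, adjusted p = 0.0714 over 6 comparisons). The part of these markers and of RNA quality in the results was not tested.

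The arrays of replicate 5 stood apart in this gene set in all 3 fractions. The median intensity over the 43 genes on the CD90-/CD133- arrays was 109 on replicate 1, 161 on replicate 2, 159.7 on replicate 3, 138 on replicate 4 and 498 on replicate 5. On the CD90+/CD133- arrays it was 66.7, 92.7, 109, 90.1 and 272, and on the CD90+/CD133+ arrays 65.3, 103.9, 92, 92.2 and 277, in the same order. Replicate 5 was therefore highest in each fraction and replicate 1 lowest. For 35 of the 43 genes the highest array of every fraction was that of replicate 5, which was the case for 9.37% of all genes. For 20 of the 43, replicate 1 was lowest in every fraction, against 10.1% of all genes. The median gene of mean log2 intensity of at least 6 lay between -0.02 and 0.02 of its fraction's mean on every array. The labels give replicates 4 and 5 the same code, yet replicate 4 was not raised. The cause was not tested.

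**Figure D1:**
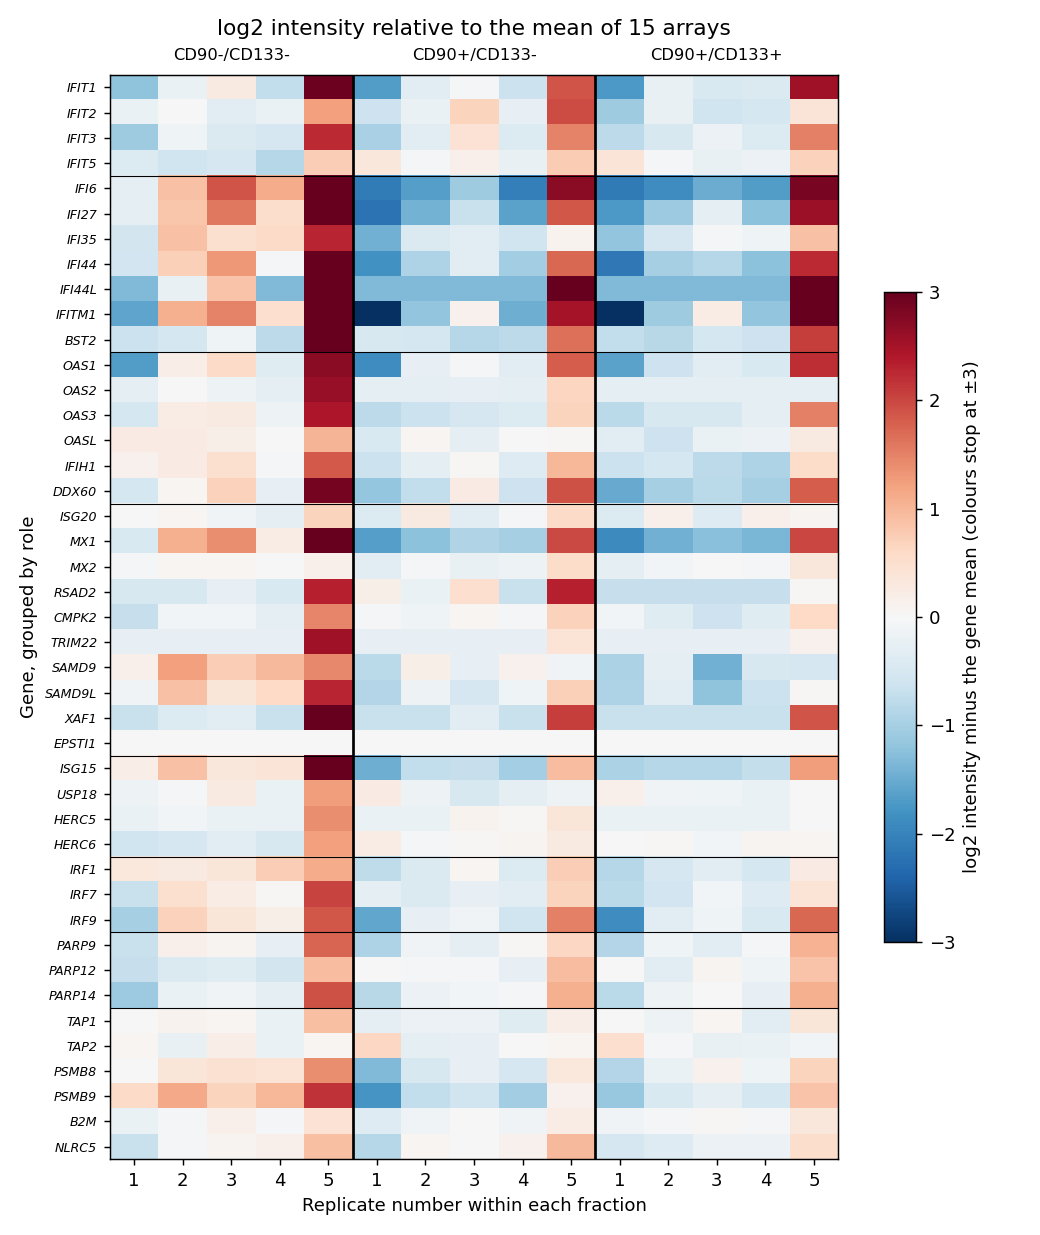
Each row is one of the 43 genes and each column an array, grouped by fraction and ordered by replicate number, with colour giving the log2 intensity minus the gene's mean over 15 arrays. The column of replicate 5 is red in each fraction for most genes, and within each replicate number the CD90-/CD133- array is the reddest of the 3 for IFI6, IFI27, MX1, ISG15 and PSMB9.

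The interferons themselves were mostly below measurement. Of 21 interferon genes listed, 18 were measured and 16 of these, IFNB1 and IFNG among them, were at the floor on all 15 arrays. IFNA17 lay between 26.6 and 60.4 and IFNL1 between 20.1 and 27.6. None of the 18 passed limma's test in any of the 3 comparisons, nor was any at an unadjusted p under 0.05. An intensity at the floor gives only an upper bound.

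Among the receptors and kinases, several receptor chains fell. Of 9 measured genes of this list, 2 rose and 5 fell in CD90+/CD133- against CD90-/CD133- cells, and 1 rose and 4 fell in CD90+/CD133+ cells. All genes of mean log2 intensity of at least 6 gave 25.3% rising and 27.5% falling in the first of these comparisons. The second gave 24.6% and 26.0%. IFNGR2, a chain of the interferon gamma receptor, had the largest change of the list in CD90+/CD133- cells, with 504 to 719.8 in CD90-/CD133-, 246 to 369 in CD90+/CD133- and 287 to 442 in CD90+/CD133+ cells. The 95% interval of its log2 change was -1.15 to -0.84 in CD90+/CD133- (limma adjusted p = 1.91e-05), and the change was -0.75 ± 0.07 (± standard error, here and for the log2 changes that follow) in CD90+/CD133+ cells (adjusted p = 7.83e-05). IL10RB, a chain shared by the interferon lambda and interleukin 10 receptors and the largest change of the list in CD90+/CD133+ cells, changed by -0.77 ± 0.11 and -0.91 ± 0.11 (limma adjusted p = 0.000846 and 0.000347). IFNLR1, the specific chain of the interferon lambda receptor, changed by -0.35 ± 0.08 and -0.59 ± 0.08 (limma adjusted p = 0.0072 and 0.000438), and IFNGR1, the other interferon gamma receptor chain, by -0.28 ± 0.09 and -0.48 ± 0.09 (adjusted p = 0.0388 and 0.00271). Of the type I receptor chains, IFNAR1 rose and IFNAR2 fell in CD90+/CD133- cells, by 0.29 ± 0.08 and -0.29 ± 0.08 (limma adjusted p = 0.027 and 0.0276). JAK1, the most intense gene of the list, did not pass against CD90-/CD133- cells and stood at -0.36 ± 0.07 in CD90+/CD133+ against CD90+/CD133- cells (limma adjusted p = 0.0343).

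In the gene set, more genes fell than rose in CD90+ cells. With the replicate number as a block, 19 of the 43 genes fell and 2 rose in CD90+/CD133- against CD90-/CD133- cells (limma, adjusted p under 0.05 over all genes). Over all genes, 17.6% fell and 14.8% rose in that comparison. Among genes of mean log2 intensity of at least 6, 18 of 32 members fell, against 27.5% of all such genes, and 2 rose, against 25.3%. In CD90+/CD133+ against CD90-/CD133- cells, 17 of the 43 fell and 1 rose, where 17.0% of all genes fell and 14.2% rose. The median log2 change of the 43 was -0.42 in the first and -0.50 in the second comparison, and that of all genes was 0 in both. Lower in all 5 numbers were 18 of the 43 in the first and 20 in the second comparison, against 18.8% and 19.4% of all genes. Higher in all 5 were 1 and 0, against 15.7% and 17.2%. Both comparisons use the same CD90-/CD133- arrays. Because the members were chosen with earlier results of these data known, the shares describe the set and do not test it against other genes. Most of these calls rest on comparing arrays of one number. Without the number as a block, PSMB9 and SAMD9 were the 2 that fell in CD90+/CD133- cells, and IRF1, PSMB9, SAMD9 and SAMD9L the 4 that fell in CD90+/CD133+ cells, with none rising. In that fit 2359 of all 19775 genes fell in the first comparison and 2177 in the second, larger shares than among the 43. Without replicate 5, 18 fell and 3 rose in the first comparison and 16 fell and 3 rose in the second. Of all 19775 genes, 3244 fell and 2826 rose in the first without replicate 5, and 3082 fell and 2650 rose in the second.

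**Figure D2:**
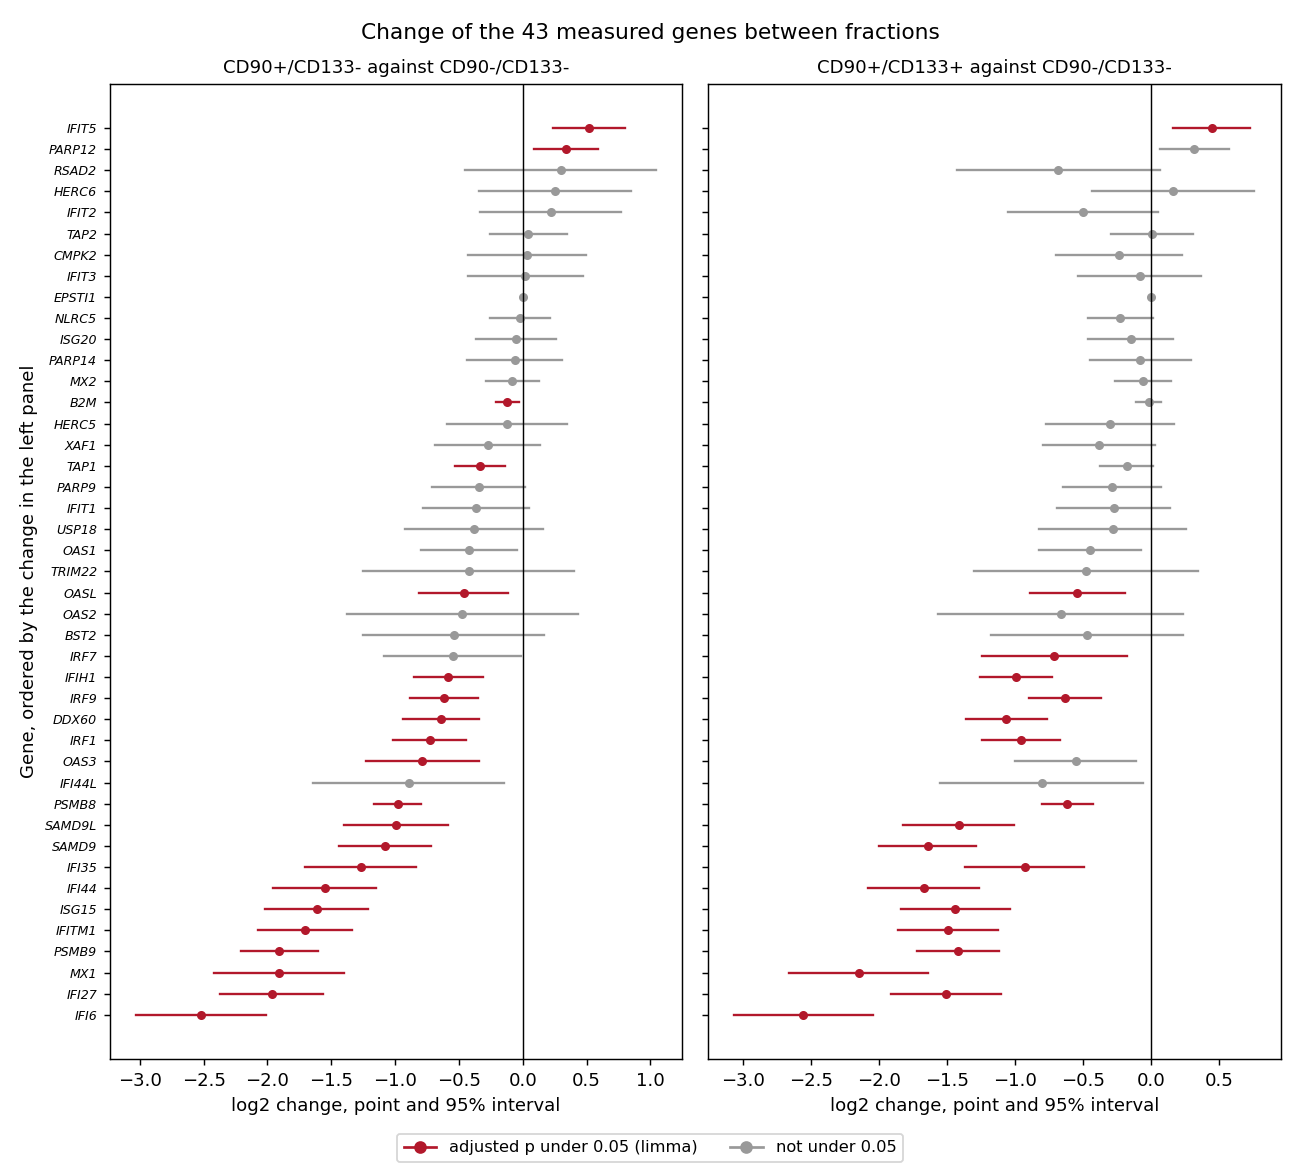
Points give the log2 change of each of the 43 genes and lines its 95% interval from limma, at left for CD90+/CD133- and at right for CD90+/CD133+ against CD90-/CD133- cells, red where the adjusted p was under 0.05. IFI6 lies at the bottom of both panels (-2.52 and -2.55) and IFIT5 at the top (0.52 and 0.45).

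Of the 3 transcription factors, 2 fell in the CD90+/CD133- fraction and 3 in the CD90+/CD133+ fraction. IRF9, a DNA-binding subunit of the complex that acts on the ISRE, read 176, 569, 453, 397 and 1289 on the CD90-/CD133- arrays, 119.8, 298, 329.8, 233 and 1009 on the CD90+/CD133- arrays and 97, 278, 323, 256 and 1164 on the CD90+/CD133+ arrays, in the order of replicates 1 to 5. The fractions overlapped widely, but in each of the 5 numbers the CD90-/CD133- array was the highest. Its log2 change was -0.61 ± 0.12 in CD90+/CD133- (limma adjusted p = 0.00354) and -0.63 ± 0.12 in CD90+/CD133+ cells (adjusted p = 0.00317), and -0.68 and -0.75 without replicate 5. IRF1, an activator induced above all by interferon gamma, read 141, 138, 147, 191 and 246 on the CD90-/CD133- arrays, 66.7, 83.9, 119, 85.7 and 189 on the CD90+/CD133- arrays and 62.6, 79.7, 92, 79.3 and 135 on the CD90+/CD133+ arrays. Every CD90+/CD133+ value of IRF1 lay below every CD90-/CD133- value, and the CD90+/CD133- values overlapped them on replicate 5 alone. The share of all genes that separate in this way was not counted. The log2 change was -0.73 ± 0.13 and -0.95 ± 0.13 (limma adjusted p = 0.00214 and 0.000507), and a second probe set stood at -0.54 and -0.98 (limma adjusted p over all probe sets = 0.0479 and 0.00319). IRF7, which amplifies type I interferon production, passed the test in CD90+/CD133+ cells (-0.71 ± 0.23, limma adjusted p = 0.0483) but not in CD90+/CD133- cells (-0.55 ± 0.23, adjusted p = 0.116). Its call was lost without any of replicates 2, 3, 4 or 5 (-0.48 without replicate 5), and the 30 nearest expressed genes on its chromosome had a median log2 change of -0.35 relative to that of all expressed genes (those of mean log2 intensity of at least 6).

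The small interferon-induced proteins included IFI6, which had the largest change of the 43 in both comparisons. In both CD90+ fractions 5 of the 7 fell, and the median log2 change of the 7 was -1.55 in the CD90+/CD133- fraction and -1.49 in the CD90+/CD133+ fraction. IFI6, a mitochondrial and endoplasmic reticulum protein that opposes apoptosis, read 153, 344, 691, 400.3 and 5470.0 on the CD90-/CD133- arrays, 43.9, 59.4, 88.5, 45.1 and 1222 on the CD90+/CD133- arrays and 42.9, 51, 66.9, 58.1 and 1337 on the CD90+/CD133+ arrays. Replicate 5 of the CD90+ fractions exceeded 4 of the 5 CD90-/CD133- arrays, while within each replicate number both CD90+ arrays lay far below the CD90-/CD133- array. The change was 5.74-fold lower in CD90+/CD133- cells, on the log2 scale -2.52 ± 0.22 (limma adjusted p = 5.84e-05), and -2.55 ± 0.22 in CD90+/CD133+ cells (adjusted p = 5.56e-05). Without replicate 5 these were -2.61 and -2.69. IFI27, a protein of similar membranes and the most intense of the group, read 820.4, 1784, 2976, 1446 and 8805 on the CD90-/CD133- arrays, 214, 376, 635, 327 and 3657 on the CD90+/CD133- arrays and 303, 471, 827, 425 and 5917 on the CD90+/CD133+ arrays. It fell by 1.97 in CD90+/CD133- and by 1.51 in CD90+/CD133+ cells on the log2 scale (limma adjusted p = 6.51e-05 and 0.000274). In all 5 numbers the CD90+/CD133+ array was above its CD90+/CD133- partner, as for 10.3% of all genes. The difference of 0.46 ± 0.18 missed the threshold (limma adjusted p = 0.175).

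IFITM1, a membrane protein that hinders viral entry, read 129, 807, 1078, 544 and 5665 on the CD90-/CD133- arrays, 43.2, 170.3, 420.5, 139.6 and 2163 on the CD90+/CD133- arrays and 44.8, 184, 454, 171 and 3113 on the CD90+/CD133+ arrays. Its range within a fraction ran over more than a factor of 10 and in each number the CD90-/CD133- array was again the highest. The log2 change was -1.71 ± 0.16 and -1.49 ± 0.16 (limma adjusted p = 8.29e-05 and 0.000175). The 30 nearest expressed genes of IFITM1 were lower too, with a median -0.49 and -0.35 relative to all expressed genes, and the part of this in the result was not tested. The paralogs IFITM2 and IFITM3, whose sequences are close enough that probes may share signal, changed by -1.94 ± 0.19 and -2.14 ± 0.16 in CD90+/CD133- cells (limma adjusted p = 0.000104 and 2.91e-05). IFI44, a cytoplasmic protein, changed by -1.55 ± 0.18 and -1.67 ± 0.18, and IFI35, a cytosolic partner of NMI, by -1.27 ± 0.19 and -0.93 ± 0.19 (all 4 with limma adjusted p of 0.00568 or less). Another probe set of IFI44, at the floor on 12 arrays, stood at -0.25 and did not pass. IFI44L was at the floor on replicates 1 to 4 of both CD90+ fractions and at 485 and 662 on replicate 5, so the floor limits its difference, -0.89 in CD90+/CD133- cells, which did not pass (limma adjusted p = 0.0696). BST2, the tether that holds budding virus at the cell surface, lay at 23.2 to 38.7 on replicates 1 to 4 and at 573, 132 and 178 on replicate 5 of the 3 fractions in order, and did not pass (95% intervals of the log2 change -1.25 to 0.17 and -1.18 to 0.24).

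Among the sensors of foreign RNA, IFIH1 (MDA5, which detects long double-stranded RNA) read 111, 121, 142, 97.2 and 362 on the CD90-/CD133- arrays, 65, 82.6, 105, 77.8 and 204 on the CD90+/CD133- arrays and 65.3, 70.3, 58.7, 53.7 and 149 on the CD90+/CD133+ arrays. It was lower in both CD90+ fractions in every number, with log2 changes of -0.58 ± 0.12 and -0.99 ± 0.12 (limma adjusted p = 0.00487 and 0.000283). The 30 nearest expressed genes of IFIH1 were at -0.43 and -0.65 relative to all expressed genes in the same comparisons. DDX60, a helicase that assists RNA sensing, changed by -0.64 ± 0.13 and -1.06 ± 0.13 (limma adjusted p = 0.00544 and 0.000362), where its neighbours were at 0.01 and -0.03. The OAS enzymes make the second messenger that activates RNase L. OAS3, the most intense of them, lay at 181, 305, 311, 233 and 1384 on the CD90-/CD133- and 149.7, 165, 183, 195 and 412 on the CD90+/CD133- arrays, a change of -0.79 ± 0.19 (limma adjusted p = 0.0138) that became -0.54 without replicate 5. In CD90+/CD133+ cells its change of -0.55 ± 0.19 missed the threshold (adjusted p = 0.0625). OASL changed by -0.46 ± 0.15 and -0.54 ± 0.15 (limma adjusted p = 0.0484 and 0.0257), and neither call held without replicate 5 (adjusted p = 0.182 and 0.0607). OAS1 did not pass by its brightest probe set (-0.42 ± 0.16 and -0.45 ± 0.16), but a second probe set fell by 1.21 and 1.10 (limma adjusted p over all probe sets = 0.00217 and 0.00361). OAS2 was dim, and its brightest probe set lay at the floor on all CD90+/CD133+ arrays, while another, at the floor on 1 of the 15 arrays, did not pass either. The neighbours of the OAS1 to OAS3 cluster were at 0.67 and 0.62 relative to all expressed genes.

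Of the 10 other antiviral effectors, MX1, SAMD9 and SAMD9L fell in both CD90+ fractions. MX1, a GTPase that traps viral nucleocapsids, read 83.4, 239, 299.7, 133.4 and 2665 on the CD90-/CD133- arrays, 36.6, 48.5, 61.7, 57.8 and 449 on the CD90+/CD133- arrays and 30.5, 42.3, 47.8, 44 and 458 on the CD90+/CD133+ arrays. Every CD90+ array was below the CD90-/CD133- array of its number, and replicate 5 was the highest of each fraction. MX1 was 3.76-fold lower in CD90+/CD133- (-1.91 ± 0.22 on the log2 scale, limma adjusted p = 0.000271) and 4.43-fold lower in CD90+/CD133+ cells (-2.15 ± 0.22, adjusted p = 0.000144), and at -1.74 and -2.05 without replicate 5. SAMD9, a cytoplasmic restriction factor of poxviruses, read 355, 750.0, 526, 624 and 856 on the CD90-/CD133- arrays, 180.0, 361, 266, 349.6 and 295 on the CD90+/CD133- arrays and 165, 257, 117, 226 and 224 on the CD90+/CD133+ arrays. It was the most intense gene of this group, and replicate 5 did not stand out in the CD90+ fractions. All CD90+/CD133+ values lay below all CD90-/CD133- values, and 1 CD90+/CD133- value, that of replicate 2, lay above the lowest of them. How many of all genes separate in this way was not counted. The log2 change was -1.08 ± 0.16 and -1.64 ± 0.16 (limma adjusted p = 0.000883 and 9.18e-05), and it passed without the block as well (adjusted p = 0.0144 and 0.00105). Its paralog and chromosomal neighbour SAMD9L changed by -0.99 ± 0.18 and -1.41 ± 0.18 (limma adjusted p = 0.00275 and 0.000414). Between the CD90+ fractions, SAMD9 and SAMD9L were below in CD90+/CD133+ cells in all 5 numbers, as were 9.39% of all genes. They stood at -0.56 ± 0.16 and -0.42 ± 0.18, and neither passed the test there by its brightest probe set (limma adjusted p = 0.08 and 0.214). The second probe set of SAMD9 did pass, at -0.93 (limma adjusted p over all probe sets = 0.0225), as did the mean of both, at -0.75 (adjusted p = 0.0313).

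The remaining effectors did not pass in either comparison with all arrays, and of these MX2, close to the floor throughout, passed in CD90+/CD133- cells without replicate 5 (from -0.08 to -0.20, limma adjusted p = 0.0198). CMPK2, a nucleotide kinase beside RSAD2 on chromosome 2, had a log2 change of 0.04 in CD90+/CD133- cells with a 95% interval of -0.43 to 0.50. RSAD2 (viperin) read 18.6, 18.5, 21.8, 18.9 and 130.4 on the CD90-/CD133- arrays, 29.2, 22.8, 36.7, 16.5 and 130.1 on the CD90+/CD133- arrays and 16, 16, 16, 16 and 26.7 on the CD90+/CD133+ arrays. Its CD90+/CD133+ arrays were at the floor on replicates 1 to 4, and on replicate 5 too the CD90+/CD133+ value was the lowest of its number. The difference against CD90+/CD133- cells was -0.98 ± 0.33 (limma adjusted p = 0.124). ISG20, MX2, XAF1 and TRIM22 had changes between -0.48 and -0.05 in these comparisons, and TRIM22 was above the floor on the replicate 5 arrays alone.

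ISG15, the ubiquitin-like modifier, was the one of 4 genes in its group that fell. It read 363, 585, 406, 417 and 3083 on the CD90-/CD133- arrays, 116, 191, 198, 157 and 599.8 on the CD90+/CD133- arrays and 165, 176, 176, 194 and 764 on the CD90+/CD133+ arrays. Replicates 1 to 4 of the CD90-/CD133- fraction lay at 363 or above and those of both CD90+ fractions at 198 or below, while replicate 5 of each CD90+ fraction exceeded them. The log2 change was -1.61 ± 0.18 and -1.44 ± 0.18 (limma adjusted p = 0.000183 and 0.000347), and -1.43 and -1.29 without replicate 5. USP18, which removes ISG15 and dampens the receptor, did not pass, with a log2 difference of -0.38 (95% interval -0.92 to 0.16) in CD90+/CD133- cells. HERC6, of the ligase family that attaches ISG15, read 136, 146, 163, 149 and 486 on the CD90-/CD133- arrays, 243, 202, 213, 219 and 248 on the CD90+/CD133- arrays and 208, 214, 197, 219 and 217 on the CD90+/CD133+ arrays. On replicates 1 to 4 its CD90+ values were all above the CD90-/CD133- values, and on replicate 5 the order turned. HERC6 did not pass with all arrays (0.25 ± 0.26, limma adjusted p = 0.586) and rose without replicate 5 (0.56 and 0.50, adjusted p = 0.00255 and 0.00425). HERC5, the main ISG15 ligase in human cells, was at 47.9 or below on every array. UBE2L6, the conjugating enzyme and no member of the set, changed by -1.38 ± 0.10 and -1.30 ± 0.10 (limma adjusted p = 2.42e-05 and 3.13e-05).

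**Figure D3:**
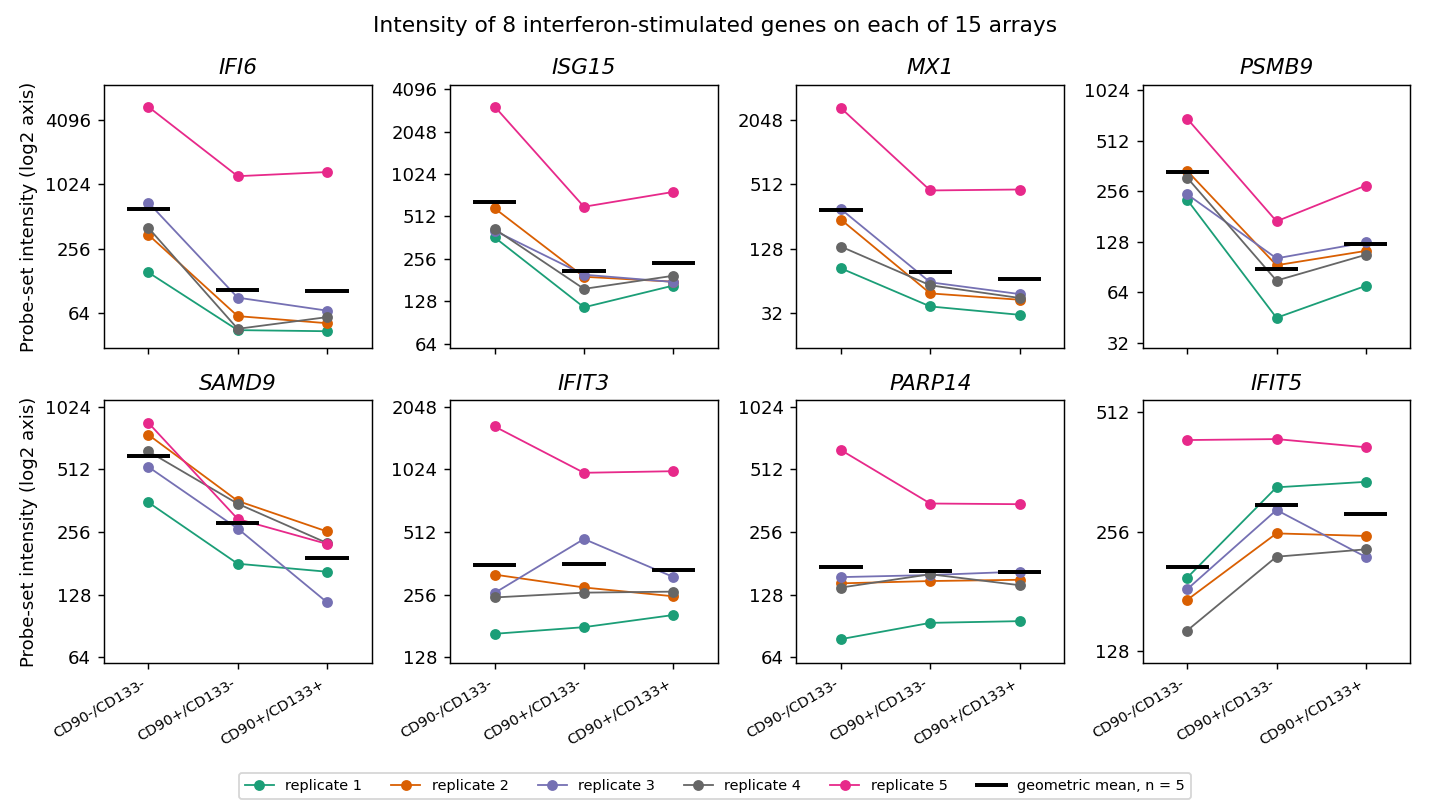
Each panel plots the intensity of a gene on a log2 axis for the 3 fractions, with a line joining the arrays of one replicate number and a black bar at the geometric mean of 5 arrays. Lines drop from CD90-/CD133- to the CD90+ fractions for IFI6, ISG15, MX1, PSMB9 and SAMD9 in all 5 numbers, cross or run close together for IFIT3 and PARP14 on replicates 2 to 4, and rise for IFIT5 on replicates 1 to 4.

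No IFIT or PARP gene passed as lower by its brightest probe set, and IFIT5 and PARP12 passed as higher. The IFIT proteins bind viral RNA and stall its translation. IFIT3, the most intense of the 4, read 166, 319, 261, 248 and 1644 on the CD90-/CD133- arrays, 178, 277, 473, 261 and 985 on the CD90+/CD133- arrays and 204, 251, 311, 264 and 1002 on the CD90+/CD133+ arrays. Replicate 5 held the highest value of each fraction, and the fractions overlapped. The log2 change was 0.02 ± 0.20 (95% interval -0.43 to 0.47) in CD90+/CD133- and -0.08 ± 0.20 (-0.53 to 0.37) in CD90+/CD133+ cells, neither of which passed. IFIT1, on the same chromosome stretch, read 48.3, 96.1, 134, 66.5 and 855 on the CD90-/CD133- arrays, 34.8, 89.9, 109, 70.8 and 414 on the CD90+/CD133- arrays and 33.5, 95, 80.5, 82.9 and 643 on the CD90+/CD133+ arrays. It did not pass, at -0.36 ± 0.18 (-0.78 to 0.05) and -0.27 ± 0.18 (-0.69 to 0.14), nor did IFIT2, at 0.22 ± 0.24 and -0.50 ± 0.24. IFIT5 rose. It read 196, 173, 184, 144 and 436 on the CD90-/CD133- arrays, 331, 254, 291, 222 and 438 on the CD90+/CD133- arrays and 342, 250.1, 221, 231 and 418 on the CD90+/CD133+ arrays, so that replicates 1 to 4 of both CD90+ fractions were all above the same replicates of CD90-/CD133- cells while replicate 5 was nearly equal. Its change was 0.52 ± 0.12 and 0.45 ± 0.12 (limma adjusted p = 0.0111 and 0.0237), and a second probe set rose by 0.80 and 0.54 (limma adjusted p over all probe sets = 0.0069 and 0.0426). The call in CD90+/CD133+ cells was lost without replicate 1, 2 or 4, and that in CD90+/CD133- cells without replicate 2 or 4.

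The IFIT genes share one stretch of chromosome 10, and their neighbours were higher in CD90+ cells. Of the 30 expressed genes nearest to IFIT1, which reach 5.06 megabases away, 27 rose and none fell in CD90+/CD133- cells, and 28 rose in CD90+/CD133+ cells. Their median change exceeded that of all expressed genes by 0.76 and 0.79. Of the 30 nearest to PARP12 on chromosome 7, 25 rose and 1 fell in CD90+/CD133- cells, and their medians were at 0.57 and 0.49. PARP12, a mono-ADP-ribosyltransferase that inhibits alphaviruses, read 224, 270.4, 283, 249 and 697 on the CD90-/CD133- arrays, 363, 353, 358, 306 and 695 on the CD90+/CD133- arrays and 369, 287, 386, 334 and 659.8 on the CD90+/CD133+ arrays. It rose by 0.34 ± 0.11 in CD90+/CD133- cells (limma adjusted p = 0.0432) and stood at 0.32 ± 0.11 in CD90+/CD133+ cells (adjusted p = 0.0585), and without replicate 5 both passed (0.43 and 0.42). The call in CD90+/CD133- cells was lost without any one of replicates 1 to 4. PARP14 did not pass, at -0.06 ± 0.16 (-0.43 to 0.31) and -0.08 ± 0.16 (-0.45 to 0.29), with neighbours at 0.17 and -0.01. PARP9, its partner on the same stretch, stood at -0.35 ± 0.16 and -0.29 ± 0.16 without passing, but its second probe set fell by 0.81 and 0.79 (limma adjusted p over all probe sets = 0.0141 and 0.0167). For genes that fell, the neighbours' medians were at -0.13 for IFI6, -0.10 for ISG15, -0.22 for MX1 and 0.16 for PSMB9 in CD90+/CD133- cells. What part the neighbourhood has in any of these changes was not tested.

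Of 6 antigen presentation genes, 4 fell in CD90+/CD133- cells and 2 in CD90+/CD133+ cells. PSMB8 and PSMB9 encode interferon-inducible catalytic subunits that replace the standard ones in the immunoproteasome. PSMB9 read 227, 338, 245, 308 and 691 on the CD90-/CD133- arrays, 45.1, 92.7, 102, 75.2 and 169 on the CD90+/CD133- arrays and 69.9, 113, 127, 107 and 277 on the CD90+/CD133+ arrays. Every CD90+/CD133- value of PSMB9 lay below every CD90-/CD133- value. No other member did so in that comparison, and the share of all genes that do was not counted. The log2 change was -1.91 ± 0.13 in CD90+/CD133- (3.75-fold lower, limma adjusted p = 1.86e-05) and -1.42 ± 0.13 in CD90+/CD133+ cells (adjusted p = 8.07e-05), and it passed without the block too (adjusted p = 0.00579 and 0.0317). PSMB8 read 376, 479, 513, 495 and 972 on the CD90-/CD133- arrays, 149, 266, 313, 261 and 462 on the CD90+/CD133- arrays and 200.4, 324, 407, 338 and 591 on the CD90+/CD133+ arrays. It changed by -0.98 ± 0.08 and -0.61 ± 0.08 (limma adjusted p = 4.37e-05 and 0.000523), and in every number CD90+/CD133- cells were lowest and CD90+/CD133+ cells intermediate. TAP1 and TAP2 form the transporter that moves peptides into the endoplasmic reticulum. TAP1, which lies next to PSMB9, fell in CD90+/CD133- cells (-0.34 ± 0.09, limma adjusted p = 0.0157) and did not pass in CD90+/CD133+ cells (-0.18 ± 0.09, adjusted p = 0.163). TAP2 did not pass (0.04 ± 0.13 and 0.01 ± 0.13), and one of its other probe sets of like intensity fell by 0.29 in CD90+/CD133- cells (limma adjusted p over all probe sets = 0.043). B2M, the light chain of class I molecules and the most intense member of all, lay at 10169 to 15803, 8946 to 13708 and 10909 to 14975 in the 3 fractions. Its change of -0.12 ± 0.04 in CD90+/CD133- cells passed (limma adjusted p = 0.0458), but was 0.13 when its probe sets were averaged, and the call was lost without any one of replicates 2 to 5. The other bright probe set of B2M, of mean log2 13.4, stood at 0.01 there, and a dim one, of mean log2 5.79, at 0.51. NLRC5, the transactivator of class I genes, did not pass (-0.02 ± 0.10 and -0.23 ± 0.10).

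Other genes of the pathway were counted too, beside all genes of mean log2 intensity of at least 6. Of the latter, 27.5% fell and 25.3% rose in CD90+/CD133- cells, and 26.0% fell and 24.6% rose in CD90+/CD133+ cells. Of 6 other proteasome genes measured, 3 fell in each comparison, among them PSMB10, the remaining immunoproteasome subunit (-0.89 ± 0.13 and -0.46 ± 0.13, limma adjusted p = 0.000717 and 0.023), and the standard subunits PSMB6 (-0.49 ± 0.07) and PSMB7 (-0.53 ± 0.07, limma adjusted p = 0.000626 and 0.000423 in CD90+/CD133- cells). PSMB5, the standard subunit that PSMB8 replaces, did not pass in CD90+/CD133- cells and rose in CD90+/CD133+ cells, at -0.02 ± 0.04 and 0.26 ± 0.04 (limma adjusted p = 0.953 and 0.00109). PSME1, the most intense gene of the list, did not pass. Of 12 class I chain and loading genes, 2 rose and 5 fell in CD90+/CD133- cells, and 1 rose and 2 fell in CD90+/CD133+ cells. HLA-F changed by -0.55 ± 0.09 and ERAP2, a peptide-trimming enzyme, by -0.51 ± 0.15 in CD90+/CD133- cells (limma adjusted p = 0.00141 and 0.0278). ERAP1, a related enzyme, stood at -0.15 ± 0.10 and -0.36 ± 0.10 in the first and second comparison (limma adjusted p = 0.316 and 0.0226). PDIA3, a chaperone of the loading complex and the most intense of the list, stood at 0.28 ± 0.03 and 0.09 ± 0.03 (limma adjusted p = 0.000293 and 0.0711), and at -0.19 ± 0.03 between the CD90+ fractions (adjusted p = 0.0238). HLA-B and HLA-C, bright on every array at 2379 or above, did not pass (-0.32 ± 0.13 and -0.02 ± 0.08). Class I sequences are so alike that their probes may share signal.

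**Figure D4:**
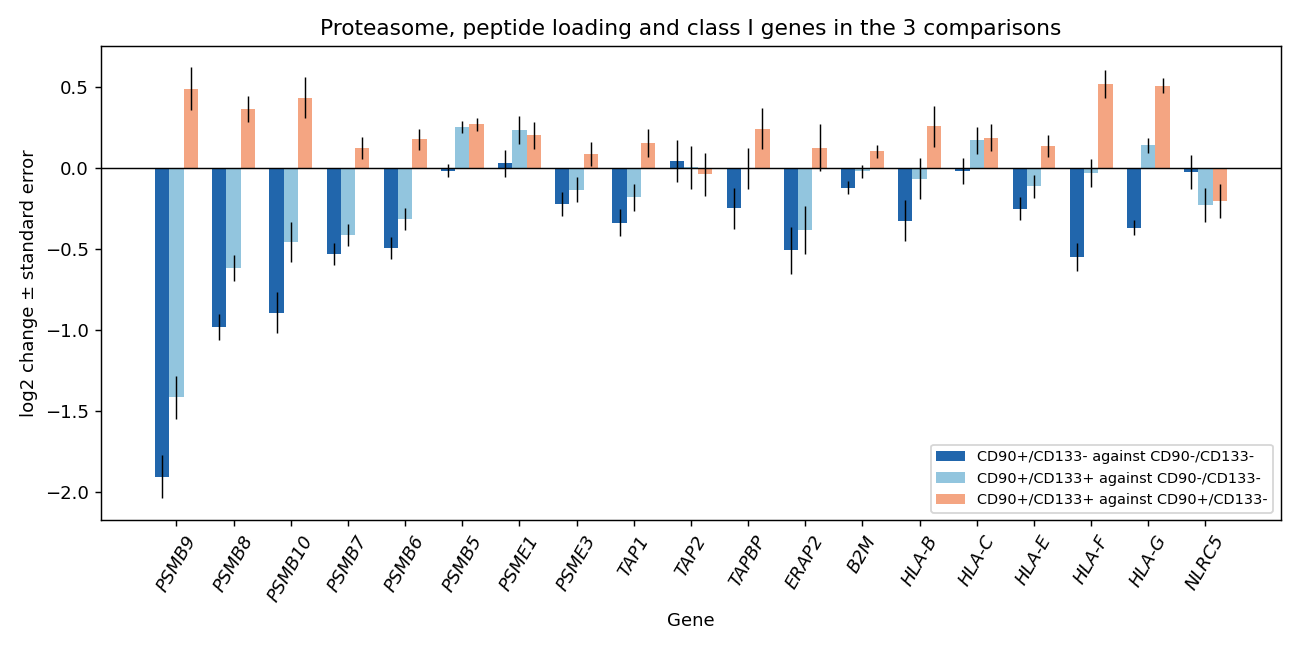
Bars give the log2 change of proteasome, peptide loading and class I genes in the 3 comparisons, with standard errors from limma. The dark and light blue bars, against CD90-/CD133- cells, reach lowest for PSMB9, PSMB8 and PSMB10, and those genes' orange bars, CD90+/CD133+ against CD90+/CD133- cells, point up.

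Between the CD90+ fractions few of the genes passed the test. In CD90+/CD133+ against CD90+/CD133- cells, 1 of the 43 genes rose and none fell by limma, where 2.30% of all genes rose and 2.31% fell. At an unadjusted p under 0.05 from limma, 4 were higher and 6 lower, and the share of all genes at that level was not counted. The unpaired test that the methods name called none of the 43 at an unadjusted p under 0.05. Of all 19775 genes, it called 1206 higher and 982 lower. PSMB8 was the gene that rose, by 0.36 ± 0.08 (limma adjusted p = 0.0445), higher in 5 of 5 numbers. This call was lost without replicate 2, 3, 4 or 5 and on leaving out 13 of the 15 arrays in turn. PSMB9 stood at 0.49 ± 0.13, above 0 in 5 of 5 numbers, with an adjusted p of 0.0734 from limma. In this comparison 6 of the 43 were higher and 7 lower in all 5 numbers, against 10.3% and 9.39% of all genes. Outside the set, HLA-F and HLA-G rose by 0.52 and 0.51 (limma adjusted p = 0.0226 and 0.00937) and PSMB5 by 0.27 (adjusted p = 0.0172). IFIT2 pointed the other way, at -0.72 ± 0.24 and lower in 5 of 5 numbers, without passing (limma adjusted p = 0.127). The median log2 change of the 43 was -0.04.

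Lists of related genes outside the set were counted the same way. Over all genes, 17.6% fell and 14.8% rose in CD90+/CD133- cells, and 17.0% fell and 14.2% rose in CD90+/CD133+ cells. For genes of mean log2 intensity of at least 6, these shares were 27.5%, 25.3%, 26.0% and 24.6% in that order. Of 13 genes of nucleic acid sensing, 9 fell and 1 rose in CD90+/CD133- cells, and 7 fell and 1 rose in CD90+/CD133+ cells. TLR3, the endosomal sensor of double-stranded RNA, changed by -0.72 ± 0.17 and -1.05 ± 0.17, and IKBKE, a kinase that activates IRF3, by -0.81 ± 0.11 and -0.43 ± 0.11 (limma adjusted p at most 0.0147). TRIM25, a ligase of the RIG-I pathway, changed by -0.72 ± 0.13 in CD90+/CD133+ cells (limma adjusted p = 0.00319). ADAR, the RNA-editing enzyme and most intense of the list, changed by -0.34 ± 0.05 and -0.54 ± 0.05 (limma adjusted p = 0.0012 and 0.000102). TBK1, the kinase that acts with IKBKE, was the one that rose (0.50 ± 0.07 and 0.33 ± 0.07, limma adjusted p = 0.000599 and 0.00544). Of 29 further interferon-stimulated genes, 16 fell and 2 rose in CD90+/CD133- cells, and 18 fell and 1 rose in CD90+/CD133+ cells. IFI16, a nuclear DNA sensor, read 394 to 1036 in CD90-/CD133-, 55 to 377 in CD90+/CD133- and 48.4 to 172 in CD90+/CD133+ cells. The first did not overlap either other fraction, and the share of all genes without overlap was not counted. The change of IFI16 was -2.05 ± 0.19 and -2.76 ± 0.19 (limma adjusted p = 8.22e-05 and 1.92e-05). PLSCR1, a phospholipid scramblase and the most intense of these, changed by -0.85 ± 0.10 and -0.88 ± 0.10 (limma adjusted p = 0.00033 and 0.00027). TNFSF10, the death ligand TRAIL, rose by 0.95 and 0.65 (limma adjusted p = 0.00619 and 0.0369). Without replicate 5 the second of these was 0.70 and did not pass (adjusted p = 0.0582), and without the block neither passed.

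In CD90+/CD133- cells 25.3% of all genes of mean log2 intensity of at least 6 rose and 27.5% fell. The shares in CD90+/CD133+ cells were 24.6% and 26.0%. Of 8 negative regulators, 2 rose and 1 fell in the first comparison, and 2 rose and 2 fell in the second. PTPN11, the phosphatase SHP2 and the most intense of them, rose by 0.73 and 0.58, and PTPN2, a phosphatase that acts on JAK1, by 0.56 and 0.61 (limma adjusted p at most 0.00116). PTPN6, the phosphatase SHP1, fell by 0.66 and 0.67 (limma adjusted p = 0.0007 and 0.000662). SOCS3 fell in CD90+/CD133+ cells by 0.55 (limma adjusted p = 0.0257), and SOCS1 did not pass. Of 10 class II genes and regulators, 1 rose and 4 fell in CD90+/CD133- cells, and 3 rose and 4 fell in CD90+/CD133+ cells. CD74, the invariant chain, rose by 1.66 and 1.59, with ranges of 41.1 to 53.6, 104 to 274 and 97.2 to 277 in the 3 fractions, while HLA-DMA, which edits class II peptides, fell by 1.57 and 1.68 (limma adjusted p at most 0.000194). HLA-DPA1, a class II chain, lay at 25.2 to 126, 16 to 24.9 and 16 to 16.3, the last at or close to the floor, and fell by 1.22 and 1.35 (limma adjusted p = 0.0124 and 0.00757). Of the regulatory factor X subunits, which drive class II promoters, RFXAP fell by 0.46 and 0.86 (limma adjusted p = 0.0419 and 0.0021), and RFX5, the most intense of the list, rose in CD90+/CD133+ cells by 0.52 (adjusted p = 0.0226).

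The calls in these related lists depended on the block as well. Without it, 2 of the 13 sensing genes fell in each comparison, 7 of the 29 further interferon-stimulated genes fell in each and none rose, and no class I gene fell in either. In that fit 2359 of all 19775 genes fell in the first and 2177 in the second comparison. Of 9 receptor and kinase genes, 2 fell in each comparison without the block, and of 6 proteasome genes 3 fell in CD90+/CD133- and none in CD90+/CD133+ cells. IFNGR2, IFNLR1, IFNAR1, IFI16, TBK1, PTPN11, PTPN2, PTPN6, CD74 and HLA-DPA1 passed wherever they are called here both without the block and without replicate 5. Without replicate 5, calls were lost for IFNGR1, IFNAR2, ERAP2 and RFXAP in CD90+/CD133- cells, for PSMB10, HLA-G and ERAP1 in CD90+/CD133+ cells, and for JAK1, PSMB5 and PDIA3 between the CD90+ fractions.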

How the data were processed

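RNA of the sorted PEO1 fractions was hybridized to Affymetrix whole-genome arrays. The deposited file holds an intensity per probe set on a linear scale, normalized by the authors with the cross-correlation method. Which software summarised the probes, and why no value is below 5, is not given in the sources used here. Values under 16 were set to 16 and log2 transformed. Each of 19775 genes was represented by its brightest single-gene probe set (mean over 15 arrays), named from the platform annotation. One linear model (limma 3.58.1, R 4.3.3) took fraction and replicate number over all 15 arrays, with Benjamini-Hochberg adjustment over all genes and a threshold of 0.05. The script was tested on simulated data. Other work used Python 3.11.15.

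The number was used as a block because arrays of a number share a code in the labels, which replicates 4 and 5 have in common, and tend to deviate together. The 15 correlations between arrays of one number ran from 0.14 to 0.80 (median 0.52), and the 60 between different numbers from -0.59 to 0.35 (median -0.08). These ranges overlap, and replicate 3 gave 0.14, 0.18 and 0.30 within its number. Deviations were taken from each fraction's own mean, so higher correlations within a number force lower ones between numbers. No pair of arrays was identical. Neighbours of a gene were the 30 nearest genes outside the set on its chromosome with a mean log2 intensity of at least 6, placed by RefSeq (GRCh38.p14), as were the promoter windows.

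The members and lists were chosen with earlier results of these data known. The rule named each member that passed in any comparison, the most intense of each role group, members at the floor on every array, and from each other list up to 4 genes that passed, by size, and its most intense gene. Further genes named beside them, such as IFIT1, IFIT2, IFI44L, BST2, OAS1, OAS2, RSAD2, CMPK2, USP18, HERC5, HERC6, PARP9, PARP14, TAP2, NLRC5, IFNAR2, HLA-B and HLA-C, were chosen after their values were seen. Alternatives were the block, the floor, the normalization, the probe sets, the genes tested, an intensity trend, each array or number left out, the plain t-test that the methods name in general (no test is named for the arrays) and their 1.5-fold threshold. Precision is limited by the number of arrays.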

Additional observations from a re-analysis of the deposited data

Results flagged for a closer look

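For each of the 43 genes and 3 fractions, the gap between the most extreme array and its nearest neighbour was divided by the range of the 5 arrays on the log2 scale (1.000 where the other 4 arrays were equal, as at the floor). Of 125 groups with any spread, 42 (33.6%) were above Dixon's 95% critical value for 5 samples. In 41 of the 42 the array was that of replicate 5 and was the highest. The genes share their arrays, so the 125 groups are not independent. A group with 4 arrays at the floor gives 1.000 by construction, so a chance rate of about 1 in 20 does not apply to it. The share of groups over all genes that lie above the critical value was not counted. In CD90-/CD133- cells the ratio passed that value for IFIT2 (0.803), IFIT3 (0.714), IFIT5 (0.723), BST2 (0.854), OAS2 (0.9), OAS3 (0.735), OASL (0.748), IFIH1 (0.712), RSAD2 (0.916), CMPK2 (0.716), TRIM22 (1.0), XAF1 (0.907), ISG15 (0.778), HERC5 (0.933), HERC6 (0.857), PARP12 (0.793) and TAP1 (0.725), each with replicate 5 highest. In CD90+/CD133- cells the ratio passed that value for IFI6 (0.789), IFI44L (1.0), BST2 (0.848), OAS2 (0.962), OAS3 (0.737), MX1 (0.792), CMPK2 (0.756), TRIM22 (1.0), XAF1 (0.875), IRF7 (0.837) and PARP12 (0.792), each with replicate 5 highest. In CD90+/CD133+ cells the ratio passed that value for IFIT3 (0.736), IFI6 (0.871), IFI44L (1.0), BST2 (0.896), OAS3 (0.773), IFIH1 (0.735), DDX60 (0.79), MX1 (0.834), RSAD2 (1.0), TRIM22 (1.0), XAF1 (1.0), ISG15 (0.895) and HERC5 (1.0), each with replicate 5 highest. The exception was TAP2 in CD90+/CD133+ cells, where replicate 1 was highest (0.778). The cause was not tested.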

How the results depend on the processing

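Counts of the 43 genes called lower and higher depended most on the replicate number as a block. Without the replicate block, 2 fell and 0 rose in CD90+/CD133- against CD90-/CD133- cells, 4 and 0 in CD90+/CD133+ against CD90-/CD133- cells, and 0 and 0 between the CD90+ fractions. With the label code as the block, which joins replicates 4 and 5, 6 and 0, 4 and 0, and 0 and 0 passed. The block within the 2 fractions compared gave 15 lower and 1 higher in the first comparison, without OAS3, OASL, TAP1, B2M and PARP12, and 17 lower and 0 higher in the second, without IRF7 and IFIT5. The methods' t-test, which has no pairing, called 2 and 0, 2 and 0, and 0 and 0 after Benjamini-Hochberg adjustment, and 5 and 0, 6 and 0, and 0 and 0 unadjusted. Of all 19775 genes, 2359 and 2177 fell in the first and second comparison without the block, and 2963 and 2866 with the label code. The t-test called 1796 and 1988 of all genes lower after adjustment, and 3064 and 3119 unadjusted. Each of these is a larger share than among the 43 in the same setting. The block within the 2 fractions compared called 2689 and 3008 of all genes lower in the first and second comparison, and 2370 and 2576 higher. By a 1.5-fold change of mean intensities with no test, 0 of the 43 were higher in each of the first 2 comparisons and 2 were lower in the third. OASL, IRF9, TAP1 and B2M were then not lower in the first, nor OASL and IRF9 in the second. Of all genes, 1355, 1208 and 75 were higher by that threshold in the 3 comparisons in order, and 1362, 1414 and 142 lower. A floor of 64 gave 16 lower and 1 higher in the first comparison, without DDX60, OASL, B2M and PARP12, 15 lower in the second, without OASL and IRF7, and 0 higher in the third. Of all genes, 2695 were then lower and 2426 higher in the first, 2578 lower in the second and 304 higher in the third. A floor of 1 gave 2 higher in the second, and 2 higher and 3 lower in the third, against 3051, 643 and 636 of all genes. Median centring gave 2 higher in the second, against 3366 of all genes. Testing genes of mean log2 intensity of at least 6 alone gave 2 higher in the second, and 2 higher and 4 lower in the third. Of all 9988 such genes, 2764, 974 and 825 did so. Averaging probe sets gave 1 lower in the third, against 674 of all genes. Taking each probe set singly gave 2 lower there, and the share of all probe sets was not counted. The change of B2M in CD90+/CD133- cells was -0.12 and became 0.13 with averaged probe sets, the one reversal of sign of a called value. A dim probe set of B2M (mean log2 5.79) stood at 0.51 there and its other bright one at 0.01.

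Leaving out each replicate number or array in turn gave 16 to 20 lower and 0 to 3 higher in the first comparison, 15 to 18 lower and 0 to 3 higher in the second, and 0 to 2 lower and 0 to 2 higher in the third. Of the calls, 15 of 21, 15 of 18 and 0 of 1 were kept under every one of these. Those lost without at least 1 replicate number were IFIT5, OAS3, OASL, PARP12, TAP1 and B2M in the first, IFIT5, OASL and IRF7 in the second and PSMB8 in the third. The causes were not tested. Intensities near the floor limit what can be said of the dim genes.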
